A study of Mus musculus with 28 samples.

Results

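The 40 genes described here are the cell cycle and proliferation genes of the series, chosen by name: cyclins, cyclin-dependent kinases (CDKs), CDC25 phosphatases, E2F factors, MCM helicase subunits and other replication genes, mitotic kinases, spindle checkpoint genes and Mki67. The rule goes by gene names and uses no measured value, though the genes were chosen with earlier results of these data known. All 40 were among the 19421 genes of the deposited table and all 40 passed the filter on low values, which left 16837 genes for testing. The question put to them was which of Atoh1, Gfi1 and Pou4f3 changes cell cycle gene expression when it is switched on.

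The series holds 28 RNA-seq libraries from 7 doxycycline (Dox)-inducible mouse embryonic stem cell lines made from the A2loxCre parental line, which carry Atoh1 (iAtoh1), Gfi1 (iGfi1), Pou4f3 (iPou4f3), Gfi1 with Atoh1 (iG+A), Gfi1 with Pou4f3 (iG+P), Pou4f3 with Atoh1 (iP+A) or all of them (iGPA), each joined to an mVenus reporter. The cells were grown as embryoid bodies (EBs), floating aggregates of differentiating stem cells. Dox (2 µg/ml) was added on day 4 and the EBs were harvested on day 6, after 48 h. Each line has 2 Dox and 2 No Dox libraries, and the series record gives the replicates as different clones of a line. All lines carry their transgenes with or without Dox, so No Dox EBs of the same line are the control. The transgenes are under a tetracycline-responsive element rather than a promoter of 1 cell type, and the feeder fibroblasts were depleted before aggregation.

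Dox libraries were made from mVenus+ cells sorted by flow cytometry and No Dox libraries from whole, unsorted EBs, so within a line the effect of Dox and that of the sort cannot be told apart. Each transgene was found where the labels place it: Atoh1 stood at 12816 to 21242 normalized counts in the 8 Dox libraries of its lines and at 120 or below in the other 20, Gfi1 at 8119 to 12487 against 119 or below, and Pou4f3 at 4694 to 19883 against 101 or below. In iG+P, iG+A and iP+A all 3 genes were called higher with Dox, also the 1 without a transgene (log2 fold changes of at least 2.70, 3.11 and 1.65). In iAtoh1, iGfi1 and iPou4f3 2 of the 3 were called higher. Below, lines with or without a factor are lines with or without its transgene. The libraries summed to 36.8 to 40.4 M normalized counts, and the value of 1 read was estimated at 0.814 to 1.22 normalized counts, so that counting error is small for genes as abundant as most of these and the errors given are those between clones. In RNA from a bulk sample, fewer cycling cells and less of the RNA in each cell cannot be told apart.

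A dividing cell passes from G1 into S phase when cyclins D and E with their CDKs inactivate the retinoblastoma family and free the E2F factors. Origins are licensed in G1 by loading the MCM helicase, with the help of Cdc6 and Cdt1 and held in check by geminin (Gmnn), and cyclin A and B kinases then drive G2 and mitosis. Hair cells of the inner ear and neurons are postmitotic, and Atoh1, Gfi1 and Pou4f3 are transcription factors of the developing hair cell. Genes of G2 and mitosis often carry the cell cycle genes homology region (CHR) and CCAAT boxes in their promoters, and genes of S phase often carry E2F sites.

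The cell cycle genes called with Dox were mostly lower in the 4 lines that carry the Atoh1 transgene and were few in the other 3. In iGPA 28 of the 40 genes fell and 1 rose, in iG+A 26 fell and none rose, and in iAtoh1 and in iP+A 19 fell and 1 rose. In iGfi1 1 fell and 5 rose, in iG+P 4 fell and 4 rose, and in iPou4f3 none passed the test. Genes were called at an adjusted p under 0.05 (limma, Benjamini-Hochberg over all 16837 genes), at any fold change. Of all genes tested, those called lower and higher were 22.3% and 23.7% in iGPA, 19.7% and 21.6% in iG+A, 11.7% and 11.4% in iAtoh1, 11.1% and 13.8% in iP+A, 14.1% and 12.4% in iGfi1, 16.9% and 16.9% in iG+P, and 1.31% and 3.41% in iPou4f3. The share of the list called lower was above that of all genes in the 4 Atoh1 lines and below it in the other 3. The rises in iGfi1 (5 of 40) lay near the share of all genes. At an unadjusted p under 0.05, 2 genes were lower and none higher in iPou4f3 (1372 and 1693 of all 16837 genes). In iG+A 28 were lower and none higher at that p (4052 and 4232).

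The falls were small. On the log2(normalized count + 1) scale, used for all fold changes here, the median log2 fold change of the 40 genes was -0.55 in iGPA, -0.45 in iG+A, -0.37 in iP+A and -0.35 in iAtoh1, or 0.683, 0.734, 0.773 and 0.782 times the No Dox level. It was 0.11 in iGfi1, 0.0022 in iG+P and -0.035 in iPou4f3, while the medians over all genes tested lay between -0.030 and 0.022 in the 7 lines. With the fold change threshold that the study used, at least 1.5 on the log2 scale, only the fall of Ccnd1 in iG+P was left.

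**Figure D1:**
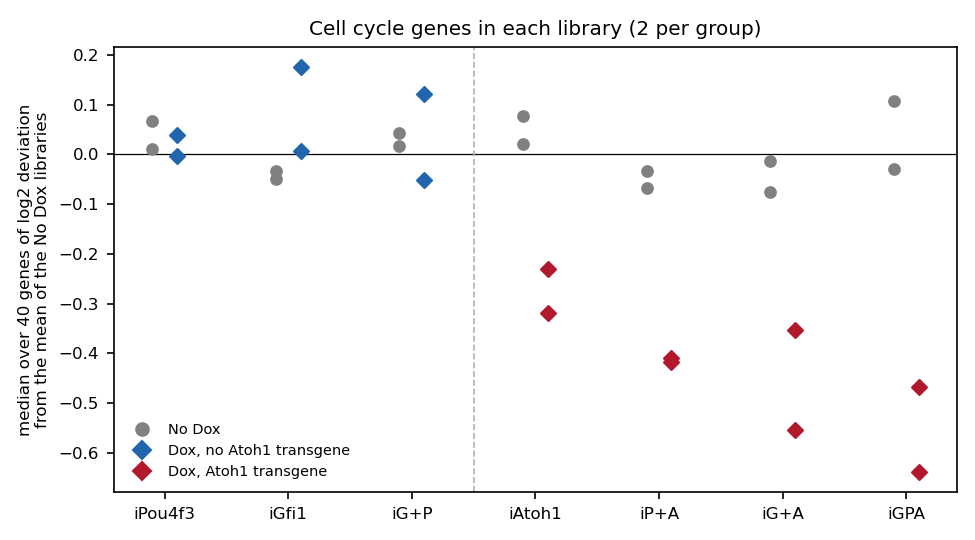
Median deviation of the 40 cell cycle genes in each library from their mean over the 14 No Dox libraries (log2, y axis), by line (x axis), with 2 libraries a group. The 8 Dox libraries with the Atoh1 transgene lie between -0.64 and -0.23, below the 6 other Dox libraries (-0.051 to 0.18) and the 14 No Dox libraries (-0.076 to 0.11).

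The separation held library by library. Relative to the mean of the 14 No Dox libraries, the median gene of the list stood at -0.64 and -0.47 in the iGPA Dox libraries, at -0.55 and -0.35 in iG+A, at -0.42 and -0.41 in iP+A and at -0.32 and -0.23 in iAtoh1. It stood at 0.18 and 0.0067 in iGfi1, at -0.051 and 0.12 in iG+P and at -0.0040 and 0.038 in iPou4f3.

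**Figure D2:**
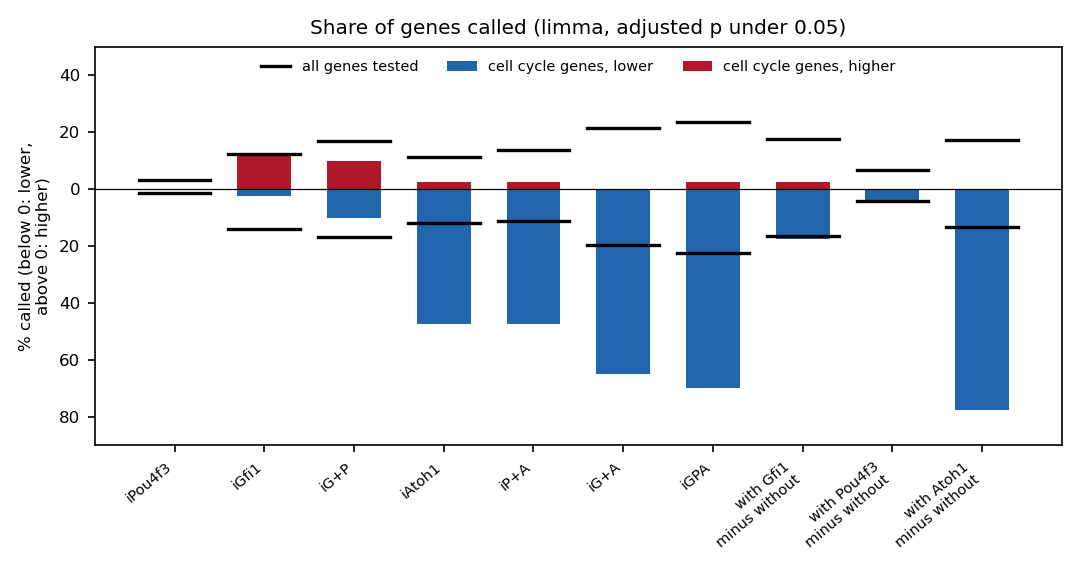
Share of the 40 cell cycle genes called lower (bars below 0) and higher (bars above 0) in each Dox comparison and in the 3 factor comparisons (y axis, percent), with the share of all 16837 genes in the same comparison as a black line. Only the 4 lines with Atoh1 and the Atoh1 comparison have bars that reach far below the line.

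Leaving out single libraries changed the counts more than their direction. Without iAtoh1 Dox replicate 1 the falls in iAtoh1 were 10, and without iP+A Dox replicate 1 or 2 those in iP+A were 9 or 10, whereas the falls stayed between 20 and 28 in iG+A and between 23 and 31 in iGPA. The calls in iGfi1 rested on single libraries, with no rise without Dox replicate 1, 9 without Dox replicate 2, 3 without No Dox replicate 1 and 2 without No Dox replicate 2, and the fall was lost without each of these 4. In iG+P the falls were 2 without No Dox replicate 1 or Dox replicate 1, and the rises were 0 without No Dox replicate 1 or Dox replicate 2 and 2 without No Dox replicate 2. With Dox and No Dox libraries of the same replicate number paired as a replicate block (no label ties a number to a clone), the falls numbered 3 in iGfi1 and 8 in iG+P and the rises 9 and 6 (17.3% and 19.5% of all genes lower and 16.1% and 19.5% higher), and all calls of the unpaired fit were kept. Under quantile normalization none fell and 6 rose in iGfi1 (13.1% and 13.9% of all genes) and 4 fell and 6 rose in iG+P (16.4% and 17.3%). Under 75th percentile scaling the counts were 0 and 7 in iGfi1 (12.6% and 15.2%) and 3 and 4 in iG+P (16.1% and 17.6%). Where a single gene's call below is said to be lost without a library, that library gave the highest adjusted p of the 28 left out in turn.

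Markers of other cell types moved in lines with Atoh1 and in lines without it. Of 12 blood markers, 9 fell in iAtoh1, 9 in iG+A, 9 in iP+A and 6 in iGPA (where 1 rose), 6 rose in iGfi1, and 4 rose and 2 fell in iG+P. Their summed level was 14776 to 62903 normalized counts in the 8 Dox libraries with Atoh1, 45337 to 388899 in the 6 Dox libraries without it and 73559 to 515574 in the 14 No Dox libraries, and only Ptprc was at 0, in 1 library each of 5 groups. Of 12 fibroblast markers, 4, 8, 5 and 10 fell in iAtoh1, iG+A, iP+A and iGPA, 6 in iGfi1 and 7 in iG+P, 1 (Thy1) rose in each of iG+A, iP+A and iGPA, and none was at 0 in any library. Their summed level was 11582 to 74621 in the Dox libraries with Atoh1, 12160 to 153956 in those without and 67353 to 205866 in the No Dox libraries. Of 12 pluripotency markers, 1, 4, 7 and 5 fell in the Atoh1 lines, 1 in iGfi1 and 4 in iG+P, none was at 0, and the summed level was 12703 to 30062 in the Dox libraries with Atoh1, 12887 to 19311 in those without and 12729 to 45833 in the No Dox libraries. Of 12 neuronal markers, 5, 4, 11 and 10 rose in iAtoh1, iG+A, iP+A and iGPA, 3 in iPou4f3 and 2 in iG+P, while 1 fell in iAtoh1, 2 in iG+A and 1 each in iGPA, iG+P and iGfi1. Their summed level with Dox was 2627 to 3772 in iAtoh1, 23497 to 29693 in iP+A and 9292 to 9339 in iGPA, against 1340 to 2273 in the No Dox libraries of the Atoh1 lines. In iG+A it was 1517 to 1696 with Dox against 1559 to 1609 without. Of the lines without Atoh1, it was 3765 to 4169 against 1602 to 1698 in iPou4f3, 2021 to 2320 against 1278 to 1432 in iG+P and 1028 to 1152 against 1540 to 1818 in iGfi1. Of 6 hair cell markers, those called higher numbered 5 for iGPA, 4 for iG+A, 3 for iP+A and 1 for iAtoh1. The median log2 fold changes of the 6 were 2.66, 1.29, 0.93 and -0.0042 in that order. Without Atoh1, 4 were called higher for iG+P, 2 for iGfi1 and 1 for iPou4f3 (medians 1.64, 0.28 and 0.17). No hair cell marker was called lower for any line. The part of these cells in the cell cycle result was not tested.

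**Figure D3:**
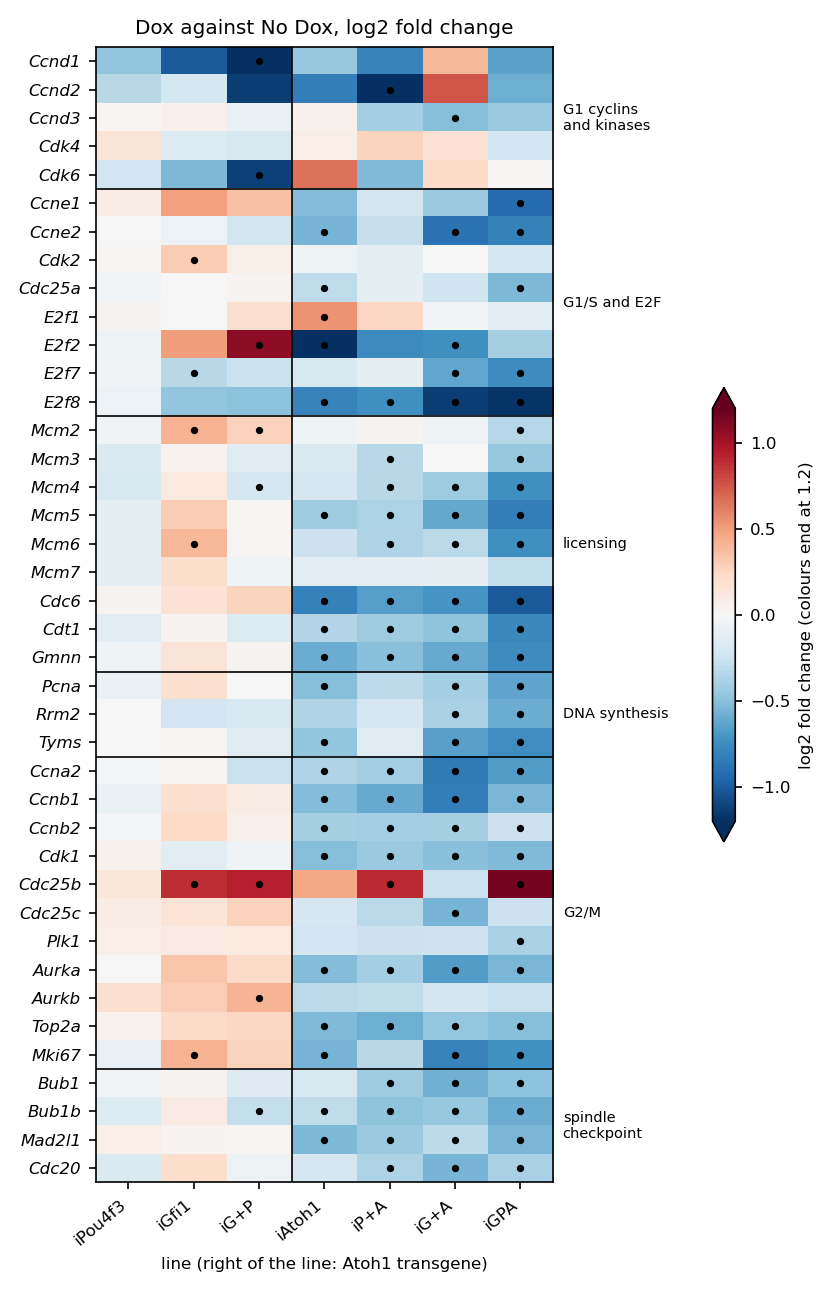
Log2 fold change of Dox over No Dox (colour, scale ends at 1.2 in either direction) for each of the 40 genes (rows, in role order) in each line (columns), with a black dot where limma gave an adjusted p under 0.05. The Atoh1 columns hold 19 to 28 dotted genes with negative values, and the columns of the other lines hold 0 to 4.

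Of the 5 G1 cyclins and kinases (Ccnd1, Ccnd2, Ccnd3, Cdk4 and Cdk6), 1 fell in iG+A, 1 in iP+A and 2 in iG+P, where 19.7%, 11.1% and 16.9% of all genes fell, and none in the other lines (limma). At an unadjusted p under 0.05, 3 were lower in iG+P, 2 in iGPA, 1 in iG+A and 1 in iGfi1 (3562, 4305, 4052 and 3223 of all 16837 genes). In iP+A 2 were lower and 1 higher at that p (3009 and 3160), and in iAtoh1 1 was higher (2886). With the block, 4 were lower in iG+P, 3 in iGPA and 1 in iGfi1 (19.5%, 25.1% and 17.3% of all genes). In iP+A 3 were then lower and 1 higher (15.3% and 16.1%), in iAtoh1 1 lower and 1 higher (15.7% and 14.5%). In iG+A 1 was lower and 2 were higher (23% and 24.1%). All 5 had values below 0 in iG+P (median -1.12), 4 in iP+A (-0.53), iGPA (-0.44) and iGfi1 (-0.21), 3 in iPou4f3 (-0.23), 2 in iAtoh1 (0.051) and 1 in iG+A (0.23), and the median SE of the class was 0.30 against 0.12 for all 40 genes. Ccnd1, a D-type cyclin that answers growth factor signals (NCBIM37 chr7:152115836-152125774), ranged from 667.0 to 4746 normalized counts over the 14 No Dox libraries, or 7.12-fold. It stood at 1036 and 726 in iG+P Dox against 4746 and 3053 without, and at 1160 and 1168 in iGfi1 against 2104 and 2616. In the Atoh1 lines it stood at 2379 and 2234 against 3331 and 2987 in iAtoh1, at 1090 and 2246 against 667 and 2125 in iG+A, at 1505 and 1564 against 2300 and 3097 in iP+A and at 853 and 897 against 2101 and 885 in iGPA. Dox and No Dox libraries overlapped in iG+A and iGPA, as they did in iPou4f3 (1063 and 1449 against 1350 and 2211). Ccnd1 fell in iG+P, by 2.13 on the log2 scale (SE 0.45, limma adjusted p = 0.00106), while its log2 fold change in iGfi1 was -1.01 ± 0.45 (SE, adjusted p = 0.104, and 0.00688 with the replicate block). With the block it was also called lower in iP+A (-0.80, limma adjusted p = 0.0238 against 0.209 without) and iGPA (-0.64, 0.0409 against 0.257).

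Ccnd2, another D-type cyclin (chr6:127075797-127101066), fell in iP+A, with 4714 and 5011 normalized counts against 18214 and 8737 (log2 fold change -1.38 ± 0.44, SE, limma adjusted p = 0.0276). Without iP+A No Dox replicate 1, the highest library for this gene, the adjusted p was 0.265. In iG+P it stood at 3215 and 3428 against 7516 and 7149 (log2 fold change -1.14, adjusted p = 0.0517, and 0.00259 with the block). The direction was the opposite in iG+A, at 9599 and 11699 against 4827 and 8187 (0.75, adjusted p = 0.181, and 0.0229 with the block). In the other lines Dox and No Dox libraries overlapped, with 3581 and 6876 against 6388 and 12101 in iAtoh1, 4905 and 7853 against 7604 and 6747 in iGfi1, 3372 and 5830 against 4051 and 7741 in iPou4f3 and 3722 and 2576 against 6681 and 3248 in iGPA. In iAtoh1 the limma adjusted p was 0.187 without and 0.0227 with the block.

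Cdk6, a kinase partner of D cyclins (chr5:3343893-3523218), fell in iG+P, at 538 and 246 against 781 and 800.5 (log2 fold change -1.12 ± 0.30, SE, limma adjusted p = 0.00773, but 0.200 without iG+P Dox replicate 2). In iAtoh1 both Dox libraries lay above both controls, at 1113 and 867 against 701 and 549.5 (0.66, adjusted p = 0.125, and 0.0372 with the block). It stood at 408 and 442 against 692 and 554 in iGfi1, at 301 and 449 against 330.5 and 566 in iPou4f3 and at 585 and 537 against 459 and 498 in iG+A. In iP+A it stood at 437 and 364 against 613 and 537 and in iGPA at 428 and 361 against 475 and 319. Cdk4, the other D cyclin kinase, was called in none of the lines, with log2 fold changes between -0.23 in iGPA and 0.26 in iP+A. With the block it was called higher in iP+A (adjusted p = 0.00804) and iG+A (0.0363) and lower in iGPA (0.00937) and iG+P (0.0314). Ccnd3 fell in iG+A alone (-0.51, adjusted p = 0.0405, and 0.444 without iG+A Dox replicate 1). With the block Ccnd3 was also called lower in iP+A (log2 fold change -0.41, adjusted p = 0.0289) and iGPA (-0.44, 0.0121).

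Of the 8 genes of the G1/S kinase and E2F class, 5 fell in iGPA, 4 in iG+A, 4 in iAtoh1 and 1 in iP+A. Of all genes, 22.3%, 19.7%, 11.7% and 11.1% fell in these lines. In iAtoh1 1 rose (11.4% of all genes), in iGfi1 1 fell and 1 rose (14.1% and 12.4%), and in iG+P 1 rose (16.9%). Ccne1 encodes a cyclin E (chr7:38883003-38892553) and stood at 937 and 1058 normalized counts in iGPA Dox against 1714 and 2070 without, at 1314 and 1404 against 2093 and 1823 in iAtoh1, at 1014 and 1478 against 1462 and 1889 in iG+A and at 1297 and 1422 against 1322 and 1903 in iP+A. In the lines without Atoh1 it was at 2412 and 1708 against 1466 and 1416 in iGfi1, at 2018 and 2567 against 1800 and 1772 in iG+P and at 1745 and 1945 against 1729 and 1736 in iPou4f3. The Dox libraries thus lay below the controls in iGPA and iAtoh1, overlapped them in iG+A and iP+A, and lay above them in the other lines. Ccne1 fell in iGPA (log2 fold change -0.92 ± 0.20, SE, limma adjusted p = 0.000840). The block added iAtoh1 (adjusted p = 0.0118 against 0.0610) and iG+A (0.0173 against 0.0798), and a rise in iGfi1 (0.0141 against 0.0700).

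Ccne2, the other cyclin E, fell in iG+A (-0.88), iGPA (-0.81) and iAtoh1 (-0.55), the last of these not without iAtoh1 No Dox replicate 1 (limma adjusted p = 0.0987). Cdc25a, a phosphatase that activates cyclin E kinase, fell in iGPA (-0.54) and iAtoh1 (-0.30, adjusted p = 0.0298, and 0.199 without iAtoh1 Dox replicate 1). Cdk2, the cyclin E kinase, rose in iGfi1 (0.30, adjusted p = 0.0149, and 0.173 without iGfi1 Dox replicate 1) and was called in no Atoh1 line, except lower in iGPA with the block (-0.21, 0.0222). With the block Cdc25a was also called lower in iG+A (-0.24, 0.00610).

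E2f7 and E2f8 encode atypical E2F repressors. E2f7 (chr10:110182495-110224440) had the smallest p of its class, in iGPA, where it stood at 879 and 881 normalized counts against 1461 and 1520 (log2 fold change -0.76 ± 0.10, SE, limma adjusted p = 1.04e-05). It also fell in iG+A, at 924 and 1057 against 1372 and 1696 (-0.63, adjusted p = 0.000115), and in iGfi1, at 1189 and 1224 against 1478 and 1561 (-0.33, adjusted p = 0.0244, and 0.145 without iGfi1 No Dox replicate 2). In the remaining lines it was at 1444 and 1291 against 1713 and 1568 in iG+P, 1347 and 1256 against 1570 and 1408 in iAtoh1, 1521 and 1441 against 1714 and 1498 in iP+A and 1548 and 1543 against 1615 and 1569 in iPou4f3. E2f8 fell in all 4 Atoh1 lines, with log2 fold changes of -1.17 in iGPA, -1.14 in iG+A, -0.81 in iAtoh1 and -0.73 in iP+A. Its calls in iAtoh1 and iP+A were lost without Dox replicate 2 of the line (limma adjusted p = 0.0838 and 0.0983). With the block E2f8 was also called lower in iGfi1 (0.00900) and iG+P (0.00561), and E2f7 in iG+P (0.0115).

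E2f1 and E2f2 encode activators of S phase genes. E2f1 rose in iAtoh1, from 1917 and 2138 to 2741 and 3171 normalized counts (log2 fold change 0.54 ± 0.10, SE, limma adjusted p = 0.000994), and with the block also in iP+A (0.25, 0.0380 against 0.0831 without). E2f2 (chr4:135728309-135751972) stood at 379 and 294 in iAtoh1 Dox against 933 and 956, at 847 and 1163 against 1845 and 1480 in iG+A and at 1315 and 1550 against 545 and 849 in iG+P. It fell in iAtoh1 (-1.497 ± 0.29, adjusted p = 0.00115) and in iG+A (-0.74, adjusted p = 0.0496, and 0.287 without iG+A Dox replicate 1), and rose in iG+P (1.07, adjusted p = 0.00755, and 0.126 without iG+P No Dox replicate 1). In iP+A its value was -0.76 (limma adjusted p = 0.0623, and 0.00969 with the block). The Dox effect in iAtoh1 lay 2.57 below that in iG+P (SE 0.41, limma adjusted p = 1.35e-04). The blood markers Gata1 and Klf1 fell in iAtoh1 (log2 fold change -2.69 and -2.92), and E2f2 stood between 466.9 and 1845 over the No Dox libraries. The part of blood cells in the E2f2 result was not tested.

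**Figure D4:**
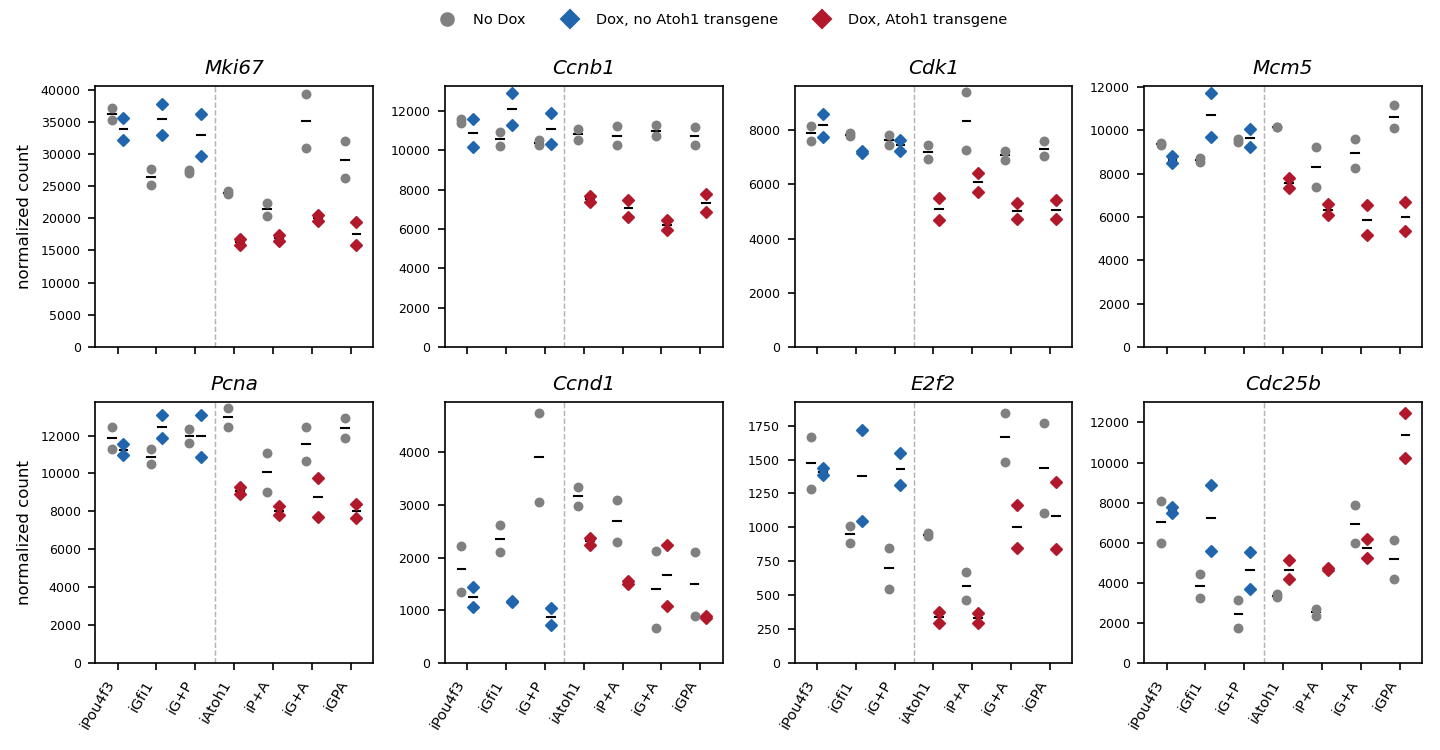
Normalized counts (y axis, from 0) of 8 cell cycle genes in every library, by line (x axis), with 2 libraries a group and their mean as a short bar. Mki67, Ccnb1, Cdk1, Mcm5 and Pcna have Dox libraries below the No Dox libraries in the Atoh1 lines, whereas Ccnd1, E2f2 and Cdc25b follow other patterns.

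Replication licensing genes fell most clearly in iGPA. Of 9 genes, 8 fell in iGPA, 7 in iP+A, 6 in iG+A and 4 in iAtoh1 (22.3%, 11.1%, 19.7% and 11.7% of all genes). In iGfi1 2 rose (12.4%), and in iG+P 1 rose and 1 fell (16.9% and 16.9%). Cdc6, Cdt1, Gmnn and Mcm5 fell in all 4 Atoh1 lines. Mcm4, a helicase subunit (chr16:15623990-15637493), had the smallest p of the class, with 7730 and 8414 normalized counts in iGPA Dox against 13288 and 13569 without (log2 fold change -0.74 ± 0.080, SE, limma adjusted p = 6.61e-07). It also fell in iG+A (8178 and 9601 against 11439 and 12398, -0.43) and in iP+A (8957 and 9575 against 11562 and 11769, -0.33). In iG+P the fall was small, 11004 and 12202 against 13864 and 12996 (-0.21, adjusted p = 0.0471, and 0.321 without iG+P Dox replicate 1). The gene stood at 11311 and 11316 against 12577 and 13502 in iAtoh1, 13635 and 13820 against 11993 and 13284 in iGfi1 and 11016 and 11220 against 12576 and 12815 in iPou4f3. In iAtoh1 the log2 fold change was -0.20 (limma adjusted p = 0.0721, and 0.0431 with the block). In iP+A the adjusted p of Mcm4 was 0.0676 without iP+A Dox replicate 1.

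Mcm2, another subunit (chr6:88833469-88848774), moved in both directions. It rose in iGfi1, at 13190 and 10875 normalized counts against 8765 and 9179 (log2 fold change 0.42 ± 0.10, SE, limma adjusted p = 0.00509), and in iG+P, at 11164 and 12521 against 9722 and 9824 (0.27, adjusted p = 0.0416). It fell in iGPA, at 8267 and 9343 against 10952 and 11338 (-0.34, adjusted p = 0.00939). In the other lines the gene was at 9689 and 10733 against 10149 and 11027 in iAtoh1, 8386 and 9892 against 9147 and 9924 in iG+A, 8652 and 9195 against 8177 and 9316 in iP+A and 9754 and 9857 against 10070 and 10109 in iPou4f3. Each of the 3 Mcm2 calls was lost without 1 library, with adjusted p = 0.118 without iGfi1 Dox replicate 1, 0.277 without iG+P Dox replicate 2 and 0.114 without iGPA Dox replicate 1. The effect in iGfi1 lay 0.760 above that in iGPA on the log2 scale (limma adjusted p of the difference = 0.000703).

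Mcm6, another helicase subunit, also rose in iGfi1 (0.40, adjusted p = 0.0246, and 0.202 without iGfi1 Dox replicate 1) and fell in iGPA (-0.73), with a difference of 1.13 between these effects (adjusted p = 0.000157). It also fell in iG+A and iP+A (-0.32 and -0.37). Mcm3 fell in iGPA (-0.45) and iP+A (-0.33), and Mcm7 in no line, with values from -0.29 in iGPA to 0.21 in iGfi1 (with the block the value in iGPA had a limma adjusted p of 0.00962). Leaving out 1 library ended the calls of Mcm6 in iG+A (0.485 without iG+A Dox replicate 1) and iP+A (0.458 without iP+A No Dox replicate 2), and those of Mcm3 in iGPA (0.0695 without iGPA Dox replicate 1) and iP+A (0.195 without iP+A Dox replicate 1).

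Cdc6, which loads the helicase onto origins, stood at 954 and 1099 normalized counts in iGPA Dox against 1886 and 2242, and fell there (log2 fold change -1.005 ± 0.16, SE, limma adjusted p = 4.41e-05). The log2 fold change was -0.81 in iAtoh1, -0.71 in iG+A and -0.66 in iP+A, the last with an adjusted p of 0.0676 without iP+A No Dox replicate 2. Cdt1, the other loading factor, fell with log2 fold changes of -0.77, -0.49, -0.43 and -0.35 in iGPA, iG+A, iP+A and iAtoh1, and the calls were lost in iP+A without No Dox replicate 2 (limma adjusted p = 0.0819) and in iAtoh1 without Dox replicate 1 (0.342). Gmnn, the inhibitor of Cdt1, kept its call in each Atoh1 line with every library left out in turn. It stood at 1670 and 2041 against 2940 and 3310 in iGPA (-0.76), 1731 and 1881 against 2723 and 2782 in iG+A (-0.61), 2092 and 1993 against 3107 and 3077 in iAtoh1 (-0.60) and 1800 and 1944 against 2590 and 2692 in iP+A (-0.50). Mcm5, a further helicase subunit, fell with log2 fold changes of -0.83, -0.61, -0.42 and -0.38 in iGPA, iG+A, iAtoh1 and iP+A. The call of Mcm5 was lost in iAtoh1 without Dox replicate 2 (adjusted p = 0.123) and in iP+A without No Dox replicate 2 (0.349). In iGfi1 its value was 0.31 (adjusted p = 0.0835, and 0.0159 with the block).

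Of the 3 DNA synthesis genes, all fell in iGPA and iG+A, 2 in iAtoh1 and none in iP+A (22.3%, 19.7%, 11.7% and 11.1% of all genes). In iP+A 1 was lower at an unadjusted p under 0.05 in limma (3009 of the 16837 genes). Pcna encodes the sliding clamp of DNA polymerase (chr2:132074898-132079050). It stood at 7642 and 8380 normalized counts in iGPA Dox against 11882 and 12944, 9260 and 8910 in iAtoh1 against 13472 and 12465, 7722 and 9745 in iG+A against 10670 and 12470 and 7806 and 8282 in iP+A against 9039 and 11070. In the lines without Atoh1 it was at 13072 and 11865 against 10504 and 11267 in iGfi1, 10890 and 13084 against 12367 and 11601 in iG+P and 10949 and 11555 against 11271 and 12470 in iPou4f3. In each Atoh1 line both Dox libraries lay below both controls. Pcna fell in iGPA (log2 fold change -0.63 ± 0.12, SE, limma adjusted p = 0.000275), iAtoh1 (-0.51, 0.00444) and iG+A (-0.41, 0.00999, and 0.165 without iG+A Dox replicate 1), and in iP+A the adjusted p was 0.0605 (-0.32, and 0.0170 with the block). Tyms, the thymidylate synthase, fell in iGPA (-0.74), iG+A (-0.65) and iAtoh1 (-0.47, and adjusted p = 0.226 without iAtoh1 No Dox replicate 1). Rrm2, the small subunit of ribonucleotide reductase, fell in iGPA (-0.59) and iG+A (-0.39, and 0.253 without iG+A Dox replicate 1), and with the block also in iAtoh1 (-0.36, adjusted p = 0.0218). Pseudogenes named after Pcna, Tyms, Ccnb1, Ccnb2 and Ccnd3 are in the annotations, of which only the copy of Tyms is in the table, so the values of these 5 genes are uncertain by any reads the copies share.

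Of the 11 G2 and mitosis genes, 8 fell in iGPA, 8 in iG+A, 7 in iAtoh1 and 6 in iP+A (22.3%, 19.7%, 11.7% and 11.1% of all genes). In iGPA 1 rose and in iP+A 1 rose (23.7% and 13.8%), and 2 rose in iGfi1 and 2 in iG+P (12.4% and 16.9%). Ccna2, Ccnb1, Ccnb2, Cdk1, Aurka and Top2a fell in all 4. Promoters of Cdk1, Ccnb1 and Mki67 from this class, of Mcm5 from the licensing class and of Cdc25b, which rose in iGPA and iP+A, are shown to set the sequences beside the levels. Each runs from 250 bases before to 50 bases after a RefSeq transcription start, 300 bases on the strand of the gene, and capitals mark the CHR motif TTTGAA, the CCAAT box and the E2F motifs TTTCCCGC, TTTCGCGC, TTTGCCGC and TTTGGCGC on either strand (where an overlapping pair of motifs makes 1 run of capitals). The windows are from GRCm38.p6, at chr10:69352863-69353162 (Cdk1, minus strand), chr13:100786437-100786736 (Ccnb1, minus), chr7:135716330-135716629 (Mki67, minus), chr8:75109259-75109558 (Mcm5, plus) and chr2:131186698-131186997 (Cdc25b, plus).
Cdk1: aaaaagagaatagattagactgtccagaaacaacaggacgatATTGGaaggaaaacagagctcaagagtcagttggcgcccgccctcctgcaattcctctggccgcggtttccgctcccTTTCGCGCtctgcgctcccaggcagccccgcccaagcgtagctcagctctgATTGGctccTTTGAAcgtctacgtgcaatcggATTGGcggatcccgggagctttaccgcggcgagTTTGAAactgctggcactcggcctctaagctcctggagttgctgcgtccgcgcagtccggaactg
Ccnb1: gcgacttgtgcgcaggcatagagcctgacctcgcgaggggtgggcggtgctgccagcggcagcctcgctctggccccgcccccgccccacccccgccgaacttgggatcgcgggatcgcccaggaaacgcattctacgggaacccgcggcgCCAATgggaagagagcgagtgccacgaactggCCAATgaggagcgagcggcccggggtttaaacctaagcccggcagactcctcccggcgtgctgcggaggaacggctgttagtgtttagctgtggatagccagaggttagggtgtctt
Mki67: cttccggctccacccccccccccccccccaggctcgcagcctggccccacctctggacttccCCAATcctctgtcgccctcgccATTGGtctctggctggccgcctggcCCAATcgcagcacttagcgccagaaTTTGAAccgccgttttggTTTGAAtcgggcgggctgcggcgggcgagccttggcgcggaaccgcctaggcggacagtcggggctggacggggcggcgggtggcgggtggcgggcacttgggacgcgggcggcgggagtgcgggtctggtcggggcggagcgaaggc
Mcm5: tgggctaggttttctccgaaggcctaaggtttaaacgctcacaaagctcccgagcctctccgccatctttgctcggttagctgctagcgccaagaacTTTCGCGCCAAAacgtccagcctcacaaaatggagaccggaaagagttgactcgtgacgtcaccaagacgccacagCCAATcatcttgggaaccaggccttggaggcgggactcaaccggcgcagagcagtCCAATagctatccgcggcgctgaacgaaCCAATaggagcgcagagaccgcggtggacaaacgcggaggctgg
Cdc25b: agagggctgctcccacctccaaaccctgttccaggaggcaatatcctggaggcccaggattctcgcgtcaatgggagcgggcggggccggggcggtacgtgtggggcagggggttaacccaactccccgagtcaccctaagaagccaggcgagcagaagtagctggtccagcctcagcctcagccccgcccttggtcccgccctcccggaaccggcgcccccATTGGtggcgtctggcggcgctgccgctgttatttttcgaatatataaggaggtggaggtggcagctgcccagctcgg

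Counted from the start, the CHR letters of Cdk1 begin at -71 and -15 and those of Mki67 at -116 and -98, both promoters hold CCAAT boxes, and that of Cdk1 also holds E2F letters from -131. Ccnb1 holds CCAAT at -99 and -67 without the CHR, Mcm5 holds E2F letters from -153, overlapping on the other strand from -149, and 3 CCAAT boxes at -77, -22 and 6, and Cdc25b holds 1 CCAAT box at -28. Of the 40 genes, 32 had a promoter window in the RefSeq table, and 11 (34.4%) held the CHR, 24 (75%) a CCAAT box and 11 (34.4%) an E2F motif, against 14.8%, 42.4% and 4.2% of the 13126 tested genes with a window. Of the 32 genes with a window, 25 were lower with Atoh1 in the comparison of factors below. They held all 11 of the genes with the CHR, 20 of the 24 with a CCAAT box and 9 of the 11 with an E2F motif. By class, 6 of 8 G2 and mitosis genes with a window held the CHR and all 8 a CCAAT box, and 6 of 7 licensing genes held an E2F motif. These are matches of letters and not shown to be sites.

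Ccnb1, cyclin B1, which drives entry into mitosis with Cdk1 (NCBIM37 chr13:101548605-101556525), had the smallest p of its class. It stood at 6450 and 5940 normalized counts in iG+A Dox against 11287 and 10700, at 7485 and 6618 in iP+A against 11236 and 10247, at 7652 and 7368 in iAtoh1 against 11093 and 10513 and at 6860 and 7785 in iGPA against 10260 and 11178. In the lines without Atoh1 it was at 12918 and 11297 against 10210 and 10925 in iGfi1, 10153 and 11612 against 11375 and 11614 in iPou4f3 and 10306 and 11885 against 10267 and 10496 in iG+P. All 8 Dox libraries with Atoh1 lay below all 20 others. Its log2 fold change was -0.83 ± 0.10 (SE) in iG+A (limma adjusted p = 2.03e-06), -0.61 in iP+A (0.000120), -0.55 in iGPA (0.000118) and -0.52 in iAtoh1 (0.000657), and each call held with every library left out in turn. Over the 14 No Dox libraries the level spanned only 1.14-fold, the least of the 40 genes.

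Cdk1, the mitotic kinase (chr10:68799383-68815686), stood at 4676 and 5494 in iAtoh1 Dox against 6945 and 7474, 4725 and 5308 in iG+A against 6893 and 7249, 6435 and 5720 in iP+A against 9399 and 7259 and 4734 and 5410 in iGPA against 7050 and 7604. It was at 7171 and 7233 against 7882 and 7799 in iGfi1, 7761 and 8607 against 7613 and 8154 in iPou4f3 and 7243 and 7646 against 7453 and 7830 in iG+P. The log2 fold changes were -0.53 in iGPA, -0.50 in iG+A, -0.51 in iAtoh1 and -0.45 in iP+A, with limma adjusted p of 0.000611 in iGPA and 0.00584 in iP+A. The call was lost in iAtoh1 without Dox replicate 1 (adjusted p = 0.0510) and in iP+A without No Dox replicate 1 (0.120).

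Top2a, the topoisomerase that untangles chromosomes (chr11:98854257-98885503), was at 17184 and 15793 in iP+A Dox against 27381 and 22406, 15809 and 19832 in iAtoh1 against 25237 and 25892, 18388 and 21040 in iGPA against 26234 and 29864 and 21233 and 22395 in iG+A against 31906 and 28198. Without Atoh1 it was at 36667 and 29077 against 28807 and 26985 in iGfi1, 28783 and 32081 against 28339 and 30670 in iPou4f3 and 32248 and 33093 against 27771 and 27372 in iG+P. It fell in the 4 Atoh1 lines, with log2 fold changes of -0.59, -0.53, -0.51 and -0.46 in the same order, with calls lost in iAtoh1 without Dox replicate 1 (limma adjusted p = 0.0894) and in iG+A without No Dox replicate 1 (0.0720).

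Mki67, which encodes the proliferation marker Ki-67 (chr7:142881471-142908062), was called in both directions. It stood at 19583 and 20550 normalized counts in iG+A Dox against 39377 and 30875, 15761 and 19402 in iGPA against 26260 and 31943, 16734 and 15818 in iAtoh1 against 23744 and 24157 and 16530 and 17319 in iP+A against 22385 and 20391. In the other lines it was at 37832 and 33006 against 25227 and 27717 in iGfi1, 29734 and 36172 against 27000 and 27450 in iG+P and 32147 and 35544 against 37092 and 35270 in iPou4f3. Both Dox libraries lay below both controls in each Atoh1 line, while the 14 No Dox libraries ran from 20391 to 39377. Mki67 fell in iG+A (log2 fold change -0.80 ± 0.12, SE, limma adjusted p = 6.35e-05), iGPA (-0.73, 0.000114) and iAtoh1 (-0.56, 0.00356). In iP+A it was -0.34 (adjusted p = 0.0569, and 0.0372 with the block). It rose in iGfi1 (0.42, 0.0190, but 0.185 without iGfi1 Dox replicate 1), and the effect in iGfi1 lay 1.22 above that in iG+A (adjusted p of the difference = 0.000130).

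Of the other genes of G2 and mitosis, Ccna2 (cyclin A2) fell with values of -0.84, -0.67, -0.42 and -0.36, Ccnb2 (cyclin B2) with -0.40, -0.26, -0.42 and -0.40, and the mitotic kinase gene Aurka with -0.67, -0.55, -0.41 and -0.52 on the log2 scale in iG+A, iGPA, iP+A and iAtoh1. All 3 calls in iP+A were lost without No Dox replicate 1 (limma adjusted p = 0.135, 0.0617 and 0.162). In iAtoh1 that of Ccna2 was lost without Dox replicate 2 (0.130), that of Ccnb2 without No Dox replicate 2 (0.0930) and that of Aurka without Dox replicate 1 (0.0878), and in iGPA that of Ccnb2 without Dox replicate 1 (0.350). Plk1, a kinase of mitotic entry, fell in iGPA (-0.39, and 0.306 without iGPA Dox replicate 1). Cdc25c, a phosphatase that activates Cdk1, fell in iG+A (-0.56, and 0.0623 without iG+A No Dox replicate 1). Aurkb, the kinase of the chromosomal passenger complex, had values of -0.22 to -0.33 in the Atoh1 lines, called in none of them without the block and lower in all 4 with it (adjusted p = 0.0105 in iAtoh1, 0.0423 in iG+A, 0.0131 in iP+A and 0.0145 in iGPA), and rose in iG+P (0.41, adjusted p = 0.0300, and 0.175 without iG+P Dox replicate 2). With the block, Aurkb (0.0145) and Aurka (0.0213) were also called higher in iGfi1, Top2a (0.0440) and Cdc25c (0.0240) higher in iG+P, and Cdc25c lower in iP+A (0.0132) and iGPA (0.0244), all as limma adjusted p.

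Cdc25b, another CDC25 phosphatase (chr2:131012685-131024233), rose in iGPA, iP+A, iG+P and iGfi1. It stood at 10246 and 12480 normalized counts in iGPA Dox against 4201 and 6155, at 4754 and 4637 in iP+A against 2672 and 2369, at 3697 and 5556 in iG+P against 1770 and 3163 and at 8892 and 5575 in iGfi1 against 4449 and 3249. In all of these both Dox libraries lay above both controls. The gene was at 5127 and 4188 against 3425 and 3291 in iAtoh1, 5259 and 6191 against 7899 and 5999 in iG+A and 7472 and 7773 against 8092 and 5966 in iPou4f3. The log2 fold changes were 1.15 ± 0.27 (SE) in iGPA (limma adjusted p = 0.00203), 0.89 in iGfi1 (0.0218), 0.90 in iP+A (0.0211) and 0.94 in iG+P (0.0120). Only the call in iGPA held with every library left out in turn, and the others reached 0.232 without iG+P No Dox replicate 1, 0.116 without iP+A No Dox replicate 2 and 0.273 without iGfi1 Dox replicate 1. With the block it was also called higher in iAtoh1 (0.46, limma adjusted p = 0.0338 against 0.235).

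The 4 spindle checkpoint and anaphase genes all fell in iGPA, iG+A and iP+A (22.3%, 19.7% and 11.1% of all genes). Of the 4, 2 fell in iAtoh1 (11.7%) and 1 in iG+P (16.9%). Bub1b, the checkpoint kinase BubR1 (chr2:118423947-118467328), had the smallest p of the class. It stood at 4578 and 5448 normalized counts in iGPA Dox against 7303 and 7766, 5858 and 5913 in iP+A against 8596 and 7846, 5095 and 5377 in iG+A against 7459 and 6873 and 6685 and 6632 in iAtoh1 against 8339 and 8153. It was at 6657 and 7004 against 8513 and 8165 in iG+P, 6864 and 7389 against 7768 and 8191 in iPou4f3 and 8294 and 8154 against 7794 and 7574 in iGfi1. Bub1b fell in iGPA (log2 fold change -0.59 ± 0.076, SE, limma adjusted p = 5.24e-06), in iP+A (-0.48), in iG+A (-0.45), in iAtoh1 (-0.31, and 0.0503 without iAtoh1 No Dox replicate 1) and in iG+P (-0.29, and 0.0614 without iG+P No Dox replicate 1). Mad2l1, another checkpoint gene, fell with log2 fold changes of -0.55, -0.54, -0.45 and -0.31 in iGPA, iAtoh1, iP+A and iG+A (the last with an adjusted p of 0.0748 without iG+A Dox replicate 2). Bub1, the checkpoint kinase, fell in iG+A (-0.58), iGPA (-0.49) and iP+A (-0.42), and Cdc20, which activates the anaphase-promoting complex, in the same lines (-0.56, -0.39 and -0.37). With the block Bub1 was also called lower in iAtoh1 (-0.19, adjusted p = 0.0470). The limma adjusted p was 0.0589 for Bub1 without iP+A Dox replicate 2, and for Cdc20 0.138 in iP+A without No Dox replicate 1 and 0.105 in iGPA without Dox replicate 1.

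Across the lines, 13 genes fell in all 4 Atoh1 lines, where 2.86% of all genes tested did: Ccna2, Ccnb1, Ccnb2, Cdk1, Aurka, Top2a, Bub1b, Mad2l1, Cdc6, Cdt1, Gmnn, Mcm5 and E2f8. Of these, Ccnb1 and Gmnn kept all 4 calls with every library left out in turn. The 8 genes called lower in no Atoh1 line were Ccnd1, Cdk4, Cdk6, Cdk2, E2f1, Mcm7, Cdc25b and Aurkb, against 65.1% of all genes tested. With the block, 25 were lower in iAtoh1, 29 in iG+A, 26 in iP+A and 35 in iGPA (15.7%, 23%, 15.3% and 25.1% of all genes). In all 4 lines 18 were then lower (4.86% of all genes), the 13 and also Mki67, Mcm4, Pcna, Bub1 and Aurkb, and Ccnd1, Cdk4, Cdk2 and Mcm7 were called lower in at least 1. The log2 fold change was below 0 in all 4 Atoh1 lines for 31 of the 40 genes (23.8% of all genes) and above 0 in all of them for none (21.1% of all genes). In the 3 lines without Atoh1 it was below 0 throughout for 6 and above 0 for 10 (18.8% and 20.3% of all genes). No library is shared between lines.

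Which factor goes with the fall was asked by comparing Dox effects between lines that differ in 1 factor, which subtracts what the sort does alike in both. For each factor 3 pairs of lines were averaged, and the comparisons of different factors share lines. With Atoh1, 31 of the 40 genes were lower than without it and none was higher, against 13.2% and 17.4% of all genes tested (limma, adjusted p under 0.05). At an unadjusted p under 0.05, 32 were lower and 2 higher, against 3070 and 3772 of the 16837 genes. With Gfi1, 7 were lower and 1 higher, against 16.3% and 17.7% of all genes. With Pou4f3, 2 were lower and none higher, against 4.07% and 6.91%. At an unadjusted p under 0.05, 8 were lower and 2 higher with Pou4f3 (1919 and 2122 of the 16837 genes). With the block 7 were lower and 2 higher with Pou4f3, against 6.72% and 9% of all genes. The medians of the differences were -0.45 for Atoh1, -0.086 for Gfi1 and -0.058 for Pou4f3. The share of the list lower with Atoh1 thus lay above that of all genes, and the shares for Gfi1 and Pou4f3 differed from it by less. Markers of other cell types differed with Atoh1 too. Of 12 blood markers 8 were lower (median -1.94), of 12 neuronal markers 9 were higher (median 1.80), of 8 endothelial markers 5 were higher (median 1.12) and of 12 fibroblast markers 3 were lower and 1 higher. With Gfi1 6 blood markers and 1 pluripotency marker were higher, and 8 fibroblast, 2 neuronal and 1 endothelial markers lower. With Pou4f3 9 neuronal markers and 1 blood marker were higher, 1 endothelial marker was lower, and 3 fibroblast markers were lower and 1 higher. Of 6 hair cell markers, 4 were higher with Atoh1, 5 with Gfi1, and 3 higher and 1 lower with Pou4f3. The part of these cells in the comparison of factors was not tested.

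**Figure D5:**
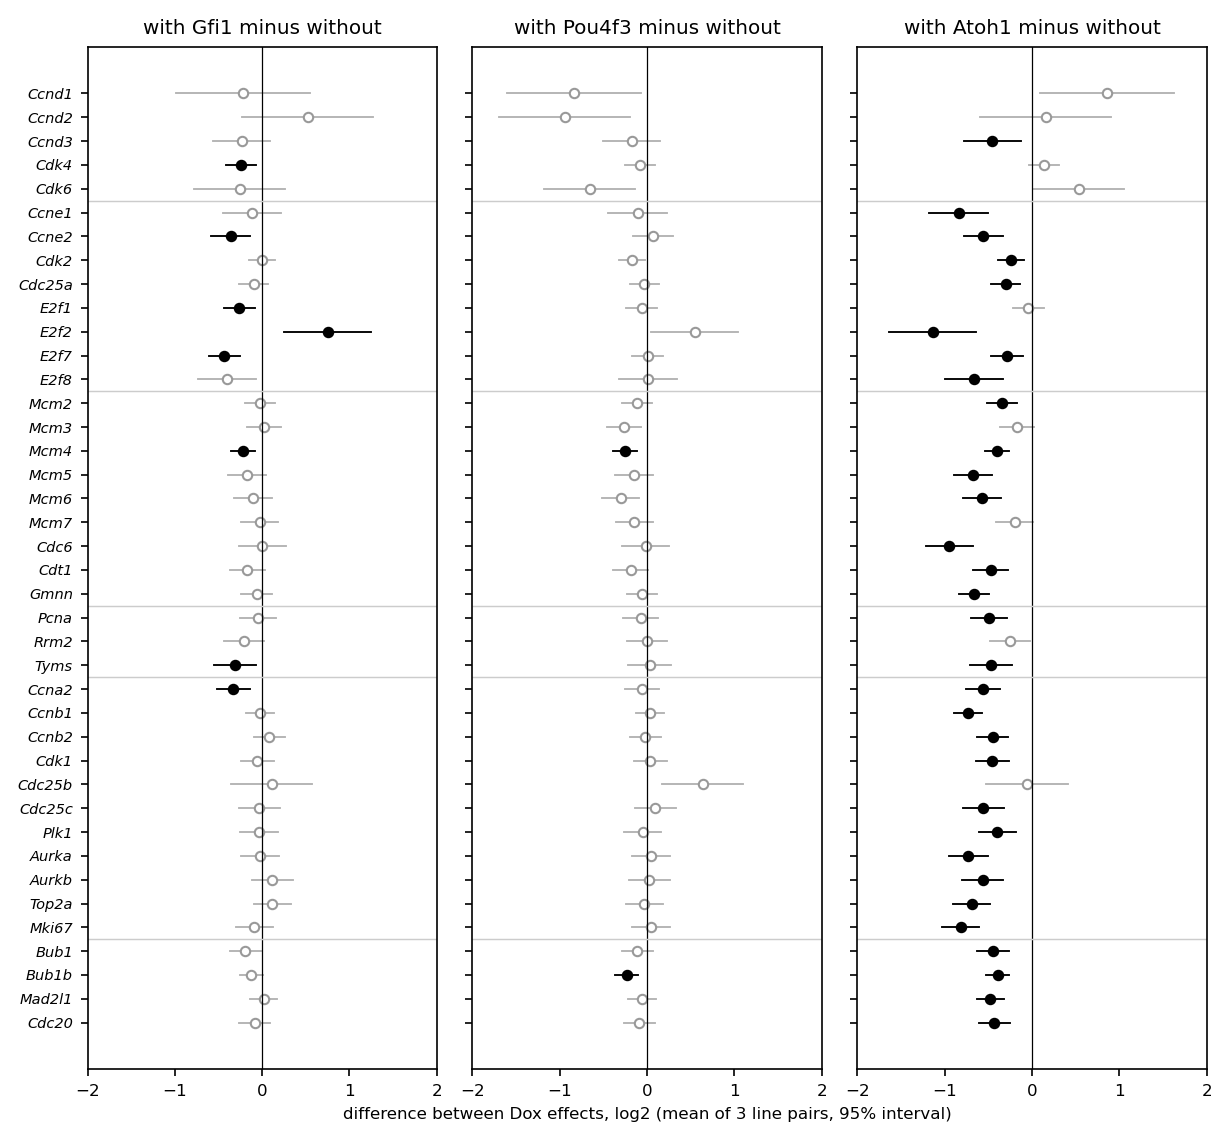
Difference between the Dox effects of lines with and without Gfi1, Pou4f3 or Atoh1 (x axis, log2, mean of 3 line pairs with its 95% interval) for each of the 40 genes (rows, in role order), with filled points where limma gave an adjusted p under 0.05. With Atoh1, 31 points are filled and all of them are below 0.

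The smallest p of the factor comparisons was that of Ccnb1 with Atoh1. Ccnb1 differed by -0.73 ± 0.078 (SE, limma adjusted p = 1.81e-06), Mki67 by -0.82 (1.06e-05), Gmnn by -0.67 (1.16e-05), Cdc6 by -0.95 (2.45e-05) and Ccne1 by -0.84 (0.000622). The genes not lower with Atoh1 were Ccnd1, Ccnd2, Cdk4, Cdk6, E2f1, Mcm3, Mcm7, Rrm2 and Cdc25b, which hold 4 of the 5 G1 genes. Ccnd1 differed by 0.86 (adjusted p = 0.0838, and 0.00488 with the block) and Cdk6 by 0.54 (0.112, and 0.0326 with the block), both upward. Mcm7, at -0.20, was called lower with the block (adjusted p = 0.0359), as was Rrm2, at -0.25 (0.0359). All but 1 of the 31 calls held with every library left out in turn, and Ccnd3 reached an adjusted p of 0.0787 without iG+P Dox replicate 2.

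The 3 Atoh1 pairs, which share no library, differed in the number of calls. In iG+A against iGfi1 23 genes were lower (11.8% of all genes tested), in iGPA against iG+P 20 (6.37%), and in iP+A against iPou4f3 2, Ccnb1 and Mad2l1 (0.535%). At an unadjusted p under 0.05 the last pair had 14 lower, against 1053 of all 16837 genes. In each pair 36 of the 40 differences were below 0, against 8149, 8016 and 8617 of the 16837 genes in the order given. In 33 genes the difference was below 0 in all 3 pairs, against 21.0% of all genes tested. The medians were -0.59, -0.53 and -0.31 in the order given.

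Over their 3 pairs, Gfi1 and Pou4f3 gave fewer calls in all than Atoh1. Against iAtoh1, iG+A was lower for 2 genes, E2f1 and Ccna2 (6.42% of all genes tested). Against iP+A, iGPA was lower for 5, Cdk4, Cdc25a, E2f7, Mcm4 and Tyms (8.86%), whereas iG+P against iPou4f3 gave none (10.3%). In the pair of iG+P and iPou4f3, 2 were lower at an unadjusted p under 0.05 (2706 of the 16837 genes). Averaged over these pairs, the 7 genes lower with Gfi1 were E2f7 (-0.43), Ccne2 (-0.36), Ccna2 (-0.33), Tyms (-0.31), E2f1 (-0.26), Cdk4 (-0.25) and Mcm4 (-0.22), and E2f2 was higher (0.75). The calls of Cdk4 and Tyms were lost without 1 library each (limma adjusted p = 0.0656 without iPou4f3 Dox replicate 1 and 0.0997 without iP+A Dox replicate 2). With the block E2f8, Cdt1 and Bub1 were also called lower with Gfi1 (0.00614, 0.0417 and 0.0136). Adding Pou4f3 gave no gene lower in iG+P against iGfi1, in iP+A against iAtoh1 or in iGPA against iG+A (0.98%, 1.54% and 1.43% of all genes). At an unadjusted p under 0.05, 3, 1 and 6 were lower (1351, 1231 and 1462 of the 16837 genes). In the last pair 1 was higher, Cdc25b (1.42, 2.76% of all genes called higher). Averaged, Mcm4 (-0.26) and Bub1b (-0.23) were lower with Pou4f3, and with the block also Ccnd1, Ccnd2, Cdk6, Mcm3 and Mcm6 (adjusted p = 0.0132, 0.00712, 0.0261, 0.0185 and 0.0165), while E2f2 and Cdc25b were then called higher (0.0342 and 0.00438).

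Other genes of the cell cycle, outside the 40, were also counted. Of all genes, 22.3%, 19.7%, 11.7% and 11.1% fell in iGPA, iG+A, iAtoh1 and iP+A, and 23.7% rose in iGPA and 21.6% in iG+A. In iGfi1 14.1% fell and 12.4% rose, and in iG+P 16.9% fell and 16.9% rose. With Atoh1, Gfi1 and Pou4f3, 13.2%, 16.3% and 4.07% of all genes were lower and 17.4%, 17.7% and 6.91% higher. Of 32 further S phase genes, 27 fell in iGPA, 25 in iG+A, 13 in iAtoh1 and 13 in iP+A, 2 fell in iGfi1, 2 fell and 1 rose in iG+P and 1 rose in iG+A. In the comparison of factors 24 were lower and 1 higher with Atoh1, 12 lower with Gfi1 (16.3% of all genes) and 1 lower with Pou4f3. Gins2, a subunit of the replicative helicase, had the smallest p of that list in iGPA (-0.98). Of 45 further G2 and M genes, 29 fell in iGPA, 33 in iG+A, 15 in iAtoh1 and 25 in iP+A. In iGfi1 5 rose (12.4% of all genes), in iG+A 1 rose, and in iG+P 1 fell and 2 rose. With Atoh1 42 were lower, with Gfi1 8 lower (16.3% of all genes) and 1 higher, and with Pou4f3 1 lower. The 5 higher in iGfi1 and the 8 lower with Gfi1 lay near the shares of all genes. Lbr (-0.76) and Gtse1 (-0.83) had the smallest p of that list in iGPA. Of 10 transcription regulators of the cycle, 5 fell and 1 rose in iGPA, among them Foxm1 (-0.43) and Mybl2 (-0.88), which activate G2 and M genes. In iG+A 3 of them fell and 1 rose, 4 fell in iP+A, 2 fell in iAtoh1, 2 fell and 1 rose in iG+P and 1 rose in iGfi1, and 3 were lower and 1 higher with Atoh1. In iPou4f3 none of the 32, 45 or 10 genes passed the limma test, where 1.31% and 3.41% of all genes were lower and higher. At an unadjusted p under 0.05, 2, 1 and 0 were lower there (1372 of the 16837 genes).

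Counts of the CDK inhibitor and p53 target lists are given beside the shares of all genes called. Of 10 genes of the CDK inhibitor and Rb families, 5 rose and 2 fell in iGPA (23.7% and 22.3% of all genes). In iG+A 3 rose and 3 fell (21.6% and 19.7%), in iP+A 1 rose and 1 fell (13.8% and 11.1%), and in iAtoh1 1 rose (11.4%). In iGfi1 3 rose and 1 fell (12.4% and 14.1%) and in iG+P 3 rose and 2 fell (16.9% and 16.9%). With Atoh1 1 was higher and 3 were lower (17.4% and 13.2%), with Gfi1 3 higher and 2 lower (17.7% and 16.3%), and with Pou4f3 1 higher (6.91%). Cdkn2b, which encodes the inhibitor p15 of Cdk4 and Cdk6, stood at 290.4 and 321 normalized counts in iGPA Dox against 35.8 and 21.6, and at 89.5 and 96.5 in iAtoh1 against 47.9 and 35.9. It rose in iGPA (3.41 ± 0.26, SE, limma adjusted p = 9.75e-09), iG+A (1.68), iP+A (1.49) and iAtoh1 (1.15) and was higher with Atoh1 by 2.03 (1.58e-06). Cdkn2c, which encodes the inhibitor p18, fell in the 4 lines with Gfi1, with -1.77 in iGPA, -1.59 in iG+A, -1.37 in iG+P and -1.25 in iGfi1. Cdkn1a, which encodes p21, fell in iP+A (-0.88) and iG+A (-0.53) and had the value -0.21 in iGPA (adjusted p = 0.414). Of 10 p53 target genes, 6 fell in iG+A (19.7% of all genes), 5 in iP+A (11.1%) and none in iAtoh1 (11.7%, also none at an unadjusted p under 0.05 in limma). With Atoh1 7 were lower and none higher (13.2% and 17.4%). In iGfi1 2 rose (12.4%), in iG+P 3 rose and 2 fell (16.9% and 16.9%), and in iPou4f3 1 fell (1.31%). In iGPA 5 of them fell and 2 rose (22.3% and 23.7%), with Sesn2 at -1.21 and Gadd45a, a stress-induced growth arrest gene, at 1.51.

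The remaining lists give the setting in iGPA. Of 6 hair cell markers, 5 rose, with Myo6 at 2.23 and Otof at 5.07, and of the 12 neuronal markers Elavl4 and Syp were at 4.93 and 4.64. Of the blood markers, Hbb-bh1 and Hbb-y were at -4.43 and -5.27, of the fibroblast markers Pdgfrb and Col1a2 at -2.27 and -4.34, and of the pluripotency markers Dppa5a and Nanog at -3.07 and -2.44. Of 8 endothelial markers, 4 rose and 1 fell, with Pecam1 at -1.93 and Kdr at 0.98. Of 10 dissociation stress genes, 2 (Fos and Atf3) fell in iG+A, and 5 were lower there at an unadjusted p under 0.05. The sum of the 10 was 43130 to 44693 normalized counts in iG+A Dox against 101869 to 108775 without (median log2 fold change -0.98). In iPou4f3 it was 48052 to 52496 against 68942 to 162548 (median -1.12, none called and 2 lower at an unadjusted p under 0.05). None was called in iGPA by limma, also at an unadjusted p under 0.05 (count 0), and Hspa1a and Dusp1 had log2 fold changes of 1.58 and 0.84 (limma adjusted p = 0.0959 and 0.106). The part of these cells and genes in the fall of the cell cycle genes was not tested.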

How the data were processed

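Bulk RNA-seq libraries were made from polyadenylated RNA (28 libraries, 14 groups of 2). Per the submitters' processing notes and methods, the authors trimmed reads with cutadapt, quantified transcripts with kallisto against mm9 and normalized with DESeq2 (versions not given in the sources used here). The deposited values are the authors' log2 of DESeq2 normalized counts with 1 added. Normalized counts were recovered as 2 to the power of the value, minus 1. Genes that reached 10 normalized counts in 2 or more libraries entered the tests (16837 of 19421). Entrez identifiers were named from RefSeq (19314 matched).

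A single limma 3.58.1 model held all 14 groups (trend, R 4.3.3, 14 residual degrees of freedom), with a contrast for each line and each factor and p-values adjusted over all genes. The scripts were tested on simulated data. No count test was run, since raw counts were not used here. This model is unpaired. Replicate numbers enter as pairs in the replicate block alternative alone, whose values are given where they change a call, because same-numbered Dox and No Dox libraries deviated together in all 7 lines (correlations 0.10 to 0.25), and the series record gives replicates as clones, though no label ties a number to a clone.

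All 40 genes are named, in 6 role classes. Per-library values are given for Mki67, Top2a, Cdk1, Ccnb1, Pcna, Mcm2, Ccnd1, Ccnd2, Cdk6, Ccne1 and the genes of smallest p in each class and over the factor contrasts, and others were chosen after their values were seen. From the other lists (S phase, G2 and M, transcription regulators, CDK inhibitors and Rb, p53 targets, neuronal, hair cell, pluripotency, blood, endothelial, fibroblast and dissociation stress genes), counts and the 2 genes of smallest p in iGPA are given (1 for the S phase list, where the other is not reported here), and further genes were chosen after their values were seen. Members and lists were chosen with earlier results of these data known. Alternatives were the pseudocount, the filter, quantile and 75th percentile scaling, the replicate block, no trend, smaller fits, pooled controls, Dox libraries alone, the study's fold threshold and leaving out each library.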

Additional observations from a re-analysis of the deposited data

Results flagged for a closer look

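Effects that differed between lines under the same treatment were singled out by a limma test of the difference. In the comparisons of factors, 31 cell cycle genes were lower with Atoh1 than without it, 7 were lower and 1 was higher with Gfi1, and 2 were lower with Pou4f3. E2f2, Mcm2, Mcm6 and Mki67 were called in opposite directions in different lines. For each, the line pair with the largest difference is given, out of 2 such pairs for E2f2 and Mcm2 and 3 for Mcm6 and Mki67. The pairs were picked by their opposite calls, so the p of the difference adds no separate support. For E2f2 the Dox effect in iAtoh1 minus that in iG+P was -2.57 (limma adjusted p = 0.000135). For Mcm2 the effect in iGfi1 minus that in iGPA was 0.760 (adjusted p = 0.000703), and for Mcm6 it was 1.13 (0.000157). For Mki67 the effect in iGfi1 minus that in iG+A was 1.22 (0.000130). The rises of E2f2, Mcm2, Mcm6 and Mki67 were each lost as calls without 1 library, with adjusted p = 0.126 for E2f2 without iG+P No Dox replicate 1, and 0.118, 0.202 and 0.185 for the others without iGfi1 Dox replicate 1.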

How the results depend on the processing

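With the study's fold threshold of 1.5 (log2), 1 gene was lower in iG+P and 0 in each other comparison and direction that had calls. With only the 2 groups of a line in the fit, 11 were lower and 0 higher in iAtoh1 (3.8% and 4.56% of all genes), 2 lower and 1 higher in iGfi1 (10.5% and 8.14%), 14 lower in iG+A (8.18%) and 2 higher in iG+P (14.7%). Under quantile normalization 0 were lower in iGfi1, 1 was higher in iG+A (20% of all genes) and 2 were higher in iP+A (13%), with a median of 0.080 in iG+P, and under 75th percentile scaling 0 were lower in iGfi1. With all 14 No Dox libraries as control, 2 were higher in iAtoh1 and 2 in iP+A (15.2% and 19.5% of all genes), and the medians were -0.25 and -0.43. With Dox libraries alone, 12 were lower and 2 higher with Gfi1 (25% and 26.3% of all genes) and 5 lower with Pou4f3 (12.2%). Other pseudocounts, filters and the fit without trend left each count within 1.5 times. Quantile normalization took the share of all called genes that were higher with Atoh1 from 56.9% to 46.7%, while 31 cell cycle genes stayed the count lower. The causes were not tested.

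With the replicate block, which pairs Dox and No Dox libraries of 1 number, 3 were higher in iAtoh1 (14.5% of all genes). In iGfi1 3 were lower and 9 higher (17.3% and 16.1%), in iG+A 2 higher (24.1%), in iG+P 8 lower (19.5%) and in iP+A 3 higher (16.1%). With Atoh1 2 were higher (20.1%), and with Pou4f3 7 were lower and 2 higher (6.72% and 9%). Other counts stayed within 1.5 times.

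Leaving out each library in turn, the genes lower ranged from 10 to 22 in iAtoh1, 0 to 2 in iGfi1, 20 to 28 in iG+A, 2 to 6 in iG+P, 9 to 20 in iP+A, 23 to 31 in iGPA, 30 to 33 with Atoh1, 5 to 9 with Gfi1 and 2 to 4 with Pou4f3. Those higher ranged from 0 to 9 in iGfi1, 0 to 2 in iG+A, 0 to 5 in iG+P, 0 to 2 in iP+A, 0 to 2 with Atoh1 and 0 to 1 with Pou4f3. The medians ranged from -0.085 to 0.076 in iG+P, -0.072 to 0.0067 in iPou4f3, 0.027 to 0.20 in iGfi1, -0.41 to -0.34 in iP+A, -0.12 to -0.039 with Gfi1 and -0.098 to -0.021 with Pou4f3. With 1 library left in a group, it is assumed to vary like the other groups. Calls at other depths or with more than 2 libraries a group were not tested.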
